A study of Mus musculus with 8 samples.

Results

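The comparison described here is that of LPS-stimulated dendritic cells lacking GRK2, GRK3 and GRK6 with LPS-stimulated wildtype (WT) cells, across all genes. It rests on 4 of the 8 libraries of the series, namely the 2 libraries labelled Grk 3xKO with LPS and the 2 labelled WT with LPS, which were chosen by these labels and not by any measured value. The cells were BMDCs, which grow out of mouse bone marrow in culture with GM-CSF, and were kept with LPS, a cell wall component of Gram-negative bacteria, for a day before RNA was extracted. Knockout marrow came from C57BL6/J mice that were Grk3-/- and carried Vav-iCre together with floxed alleles of both other kinases (Grk2 fl/fl and Grk6 fl/fl). The Vav promoter drives Cre in blood-forming cells from early precursors onwards, so that Grk2 and Grk6 were targeted before the culture began, whereas Grk3 was disrupted in the germline. WT marrow came from Cre-negative, age- and sex-matched adult controls. The knockout cells are called 3xGrk-/- below, and Grk5 was left intact in both genotypes. All 4 libraries share the GM-CSF culture and the LPS treatment. The methods speak of technical triplicates, and it is not stated if each library is a culture or mouse of its own, so the p-values below measure only the spread between these libraries, which may be technical.

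GRKs phosphorylate the intracellular part of G-protein coupled receptors once these have bound their ligand, and beta-arrestins then bind the phosphorylated receptor and end its signal. GM-CSF cultures of bone marrow give rise to dendritic cell-like and macrophage-like cells side by side, called GM-DCs and GM-Macs. LPS binds the receptor TLR4 and makes GM-DCs mature, with more MHC and costimulatory molecules on the surface, more CCR7 (the receptor that guides them to lymph nodes) and large amounts of cytokines and chemokines.

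The 4 libraries held 5743957 to 6933358 reads assigned to genes, and expression is given as CPM, a count scaled to the size of its library with the TMM method. The 11830 genes with enough reads were compared by the quasi-likelihood test of edgeR, p-values were adjusted over all of them (Benjamini-Hochberg), and a gene is said to be called, higher or lower where the adjusted p was under 0.05. Fold changes are log2 of 3xGrk-/- over WT with their standard error (SE), and n = 2 libraries for each genotype throughout. A signed value in parentheses after a gene is its log2 fold change. With 2 libraries against 2, an exact permutation test cannot give a two-sided p below 0.333, and the adjusted p-values depend on edgeR's sharing of the variance between genes. The common biological coefficient of variation was 0.0573. One library stood apart: the ribosomal RNA-overlapping gene Gm42418 took 149727 reads in replicate 2 of LPS-stimulated 3xGrk-/- cells against 26853 in replicate 1 and 26892 and 40843 in the WT libraries, and its fold change after LPS turned to −0.19 without that replicate. In the same setting, 2365 genes were called higher and 2095 lower. Because these are bulk libraries, fewer cells of a type and less RNA per cell cannot be told apart.

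Transcripts of all 3 targeted kinases were lower in 3xGrk-/- libraries without being absent. The floxed Grk2 gene (chromosome 19, 4286001 to 4306222 of GRCm38, ENSMUSG00000024858) had 632 and 680.4 CPM in the WT libraries and 184 and 171 CPM in the 3xGrk-/- libraries (log2 fold change −1.89, SE 0.07, adjusted p = 9.39e-16). Grk6 (chromosome 13, 55445072 to 55460927) had 85.7 and 93.6 CPM in WT and 31.5 and 30.3 CPM in 3xGrk-/- cells (log2 fold change −1.54, SE 0.10, adjusted p = 2.52e-11). The 3xGrk-/- level was 27.0% of WT for Grk2 and 34.5% for Grk6. The smallest decrease of the 3 was that of the germline knockout: Grk3 (chromosome 5, 112910482 to 113015791) had 429 and 410.0 CPM against 318 and 311 CPM (log2 fold change −0.42, SE 0.06, adjusted p = 6.00e-06). Counts are summed over all exons of a gene, so they do not show whether the remaining reads come from the deleted exons. Grk5, which was not targeted, had 27.8 and 30.3 CPM in WT and 16.7 and 17.6 CPM in 3xGrk-/- libraries and was also lower (log2 fold change −0.76, SE 0.13, adjusted p = 5.45e-05), while Grk4 was near the detection limit and not called (log2 fold change 0.38, SE 0.37, adjusted p = 0.419). Both beta-arrestins were higher: Arrb1 had 180.0 and 177 CPM in WT against 277 and 255 CPM in 3xGrk-/- libraries (log2 fold change 0.58, SE 0.06, adjusted p = 1.88e-07), and Arrb2 had 343 and 355 CPM against 443 and 411 CPM (log2 fold change 0.29, SE 0.06, adjusted p = 5.06e-04). The call for Arrb2 was lost without replicate 1 of the 3xGrk-/- libraries. Genotypes did not overlap for any of the 7 genes of this group, against 72.7% of all tested genes that do not overlap.

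Of the 11830 genes tested, 5754 (48.6%) were called, 2919 (24.7%) higher and 2835 (24%) lower in 3xGrk-/- cells, and the median log2 fold change over all tested genes was −0.01. The larger changes leaned towards higher expression. A change of at least 2-fold was reached by 1223 of the genes called higher (10.3% of those tested) and by 761 of those called lower (6.43%). At 4-fold there were 538 higher and 213 lower genes, at 16-fold 122 higher and 30 lower, and at 32-fold 60 higher and 16 lower. The median change of the called genes was 0.81 for those higher and −0.62 for those lower. Libraries of the genotypes did not overlap for 72.7% of all tested genes. Under an assumed coefficient of variation of 0.4 in place of the measured one, 569 genes stayed called higher and 213 lower, and DESeq2 called 1992 higher and 1671 lower.

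**Figure D1:**
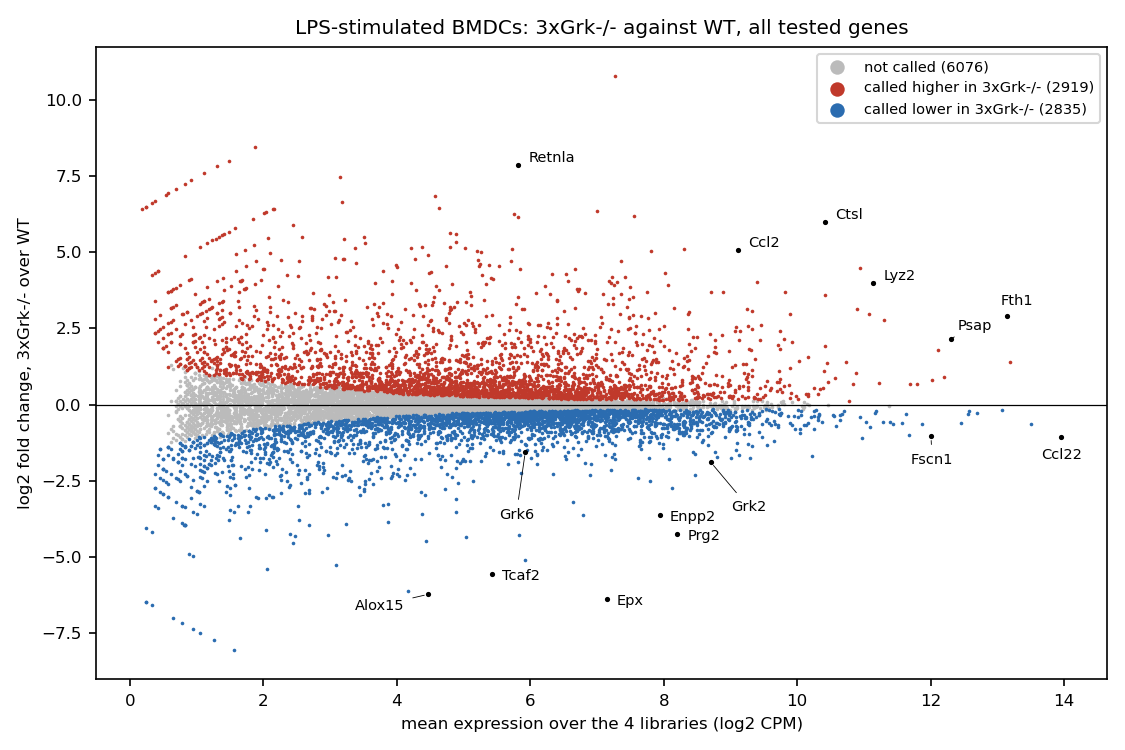
Each point is 1 of the 11830 genes tested in LPS-stimulated BMDCs, with its mean expression over the 4 libraries (x axis, log2 CPM) against its log2 fold change of 3xGrk-/- over WT (y axis), red where called higher (2919), blue where called lower (2835) and grey where not called (6076). Retnla lies near the top with 7.86, Epx among the lowest well-expressed genes with −6.37, and Fth1, Psap and Ccl22 at the right among the most abundant genes that changed.

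The most abundant transcripts differed between the genotypes. In WT cells the gene with the most reads was Ccl22 (chromosome 8, 94745590 to 94751699), a chemokine of mature DCs that attracts T cells through CCR4, with 21245 and 21788 CPM, and in 3xGrk-/- cells it had 10198 and 10249.7 CPM (log2 fold change −1.07, SE 0.04, adjusted p = 1.63e-15). In 3xGrk-/- cells the gene with the highest mean was Fth1 (chromosome 19, 9980598 to 9985098), the heavy chain of the iron store ferritin, with 16083 and 15929 CPM, against 2027 and 2232 CPM in WT (log2 fold change 2.91, SE 0.05, adjusted p = 1.12e-20). Ftl1, the ferritin light chain, had 1953 and 2021 CPM in WT and 6995 and 6735 CPM in 3xGrk-/- libraries (log2 fold change 1.79, SE 0.05, adjusted p = 1.05e-17). Psap, the precursor of the saposins that activate lysosomal lipid hydrolases, had 1816 and 1884 CPM in WT and 8270.2 and 8207 CPM in 3xGrk-/- libraries (log2 fold change 2.15, SE 0.05, adjusted p = 4.12e-19), so that these 3 genes of storage and lysosome, with the MHC class I light chain B2m (0.9), came into the 10 most-read genes of the knockout but not of WT. Other abundant genes were lower. Actb, a cytoskeletal actin, had 14114 and 14022 CPM in WT and 9219 and 8881 CPM in 3xGrk-/- cells (log2 fold change −0.64, SE 0.04, adjusted p = 2.49e-11), and Fscn1, an actin-bundling protein of mature DCs, had 5299 and 5756 CPM against 2732 and 2645 CPM (log2 fold change −1.04, SE 0.05, adjusted p = 2.29e-13). Smaller decreases among the most-read genes were those of the elongation factor Eef1a1 (−0.62), the cystatin Cst3 (−0.61), the chemokine Ccl5 (−0.32) and the MHC class II chaperone Cd74 (−0.27, and −0.17 without replicate 2 of WT).

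**Figure D2:**
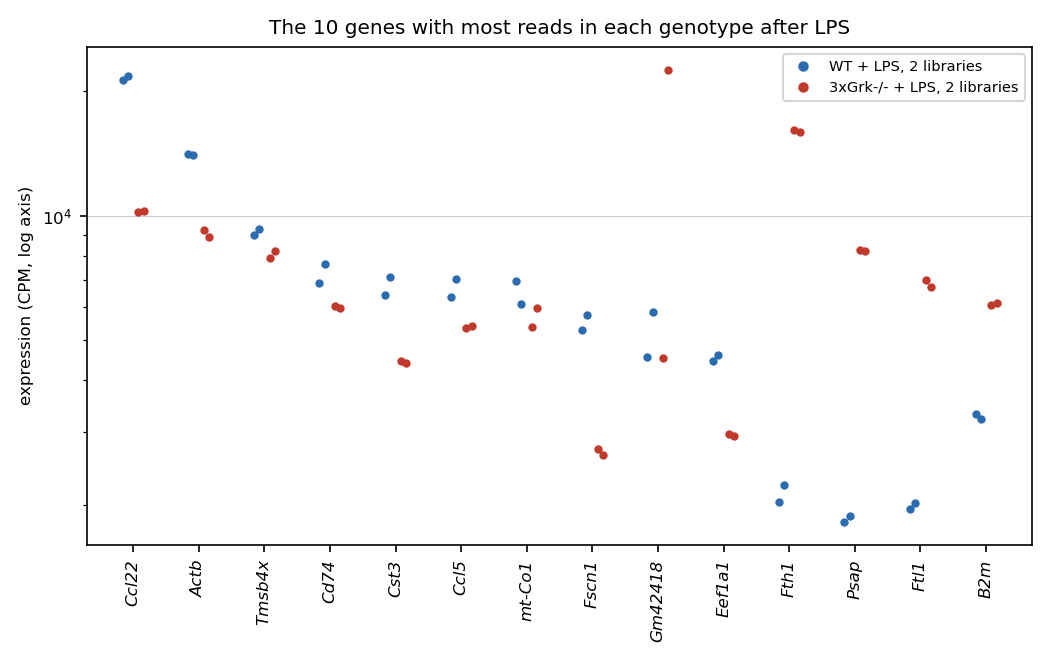
Expression in single libraries (CPM, log axis) of the 14 genes that are among the 10 most-read genes of either genotype after LPS; blue points are the 2 WT and red points the 2 3xGrk-/- libraries. Replicates lie close together except for Gm42418 in 3xGrk-/- cells; Fth1, Psap, Ftl1 and B2m are higher, and Ccl22, Actb, Cst3, Fscn1 and Eef1a1 lower, in both 3xGrk-/- libraries.

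Among the largest increases of well-expressed genes was that of Retnla, a secreted protein known from alternatively activated macrophages. It had 3 reads in each WT library against 659 and 759 in the 3xGrk-/- libraries, a ratio of 243 with an exact 95% counting interval of 111 to 662, which covers counting error only. WT expression was at the limit of detection and both 3xGrk-/- libraries were far above it.

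Ctsl (chromosome 13, 64359337 to 64370890), which encodes cathepsin L, a lysosomal protease, had 42.2 and 43.03 CPM in WT and 2685 and 2714 CPM in 3xGrk-/- cells (log2 fold change 5.98, SE 0.07, adjusted p = 2.75e-23), a 63.4-fold difference. The monocyte-attracting chemokines Ccl7 and Ccl2 lie next to each other on chromosome 11. Ccl7 had 4.91 and 5.29 CPM in WT and 371 and 372 CPM in 3xGrk-/- libraries (log2 fold change 6.18, SE 0.10, adjusted p = 8.38e-21), and Ccl2 had 30.5 and 33.4 CPM against 1058 and 1088 CPM (log2 fold change 5.06, SE 0.07, adjusted p = 1.75e-21). Spp1, the secreted phosphoprotein osteopontin, had 19.5 and 16.01 CPM in WT and 617 and 606 CPM in 3xGrk-/- cells (log2 fold change 5.11, SE 0.09, adjusted p = 9.03e-21). Pdpn, podoplanin, a membrane mucin that binds CLEC-2, had 3.05 and 3.14 CPM against 242 and 262 CPM (log2 fold change 6.34, SE 0.12, adjusted p = 6.46e-20). Ly6a, the interferon-inducible surface protein Sca-1, had 13.04 and 13.4 CPM against 433 and 435 CPM (log2 fold change 5.03, SE 0.08, adjusted p = 9.00e-21). The other genes with the largest increases were nearly absent from WT libraries. They were the proteoglycan Dcn (6.15), the transcript U90926 (6.24), the lipid phosphatase Plpp3 (5.13), the myelin protein Pmp22 (5.11), the membrane protein Emp1 (5.02), the adhesion molecule Clmp (4.99) and the nucleoside transporter Slc28a2 (4.75). The largest adjusted p among these 7 was that of Plpp3, 1.64e-15. Genotypes did not overlap for any of these genes, as the rule for naming them required.

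Among well-expressed genes (mean log2 CPM of at least 5) the largest decrease was that of an eosinophil gene. Epx (chromosome 11, 87864000 to 87875536), eosinophil peroxidase, had 258 and 299 CPM in WT and 3.87 and 2.86 CPM in 3xGrk-/- cells (log2 fold change −6.37, SE 0.13, adjusted p = 2.55e-19). Prg2, the granule major basic protein, had 551 and 568 CPM against 30.999 and 28.3 CPM (log2 fold change −4.24, SE 0.08, adjusted p = 2.30e-20). Ear1 (−5.08) and Ear6 (−4.35), ribonucleases of the eosinophil granule, belong to a family of near-identical copies, so their separate values are uncertain. Alox15, a lipoxygenase of eosinophils and of alternatively activated macrophages, fell from 236 and 318 reads in WT to 2 and 5 reads in 3xGrk-/- libraries, and WT was higher by a ratio of 77.1 with an exact 95% counting interval of 37.2 to 193. Of the 12 eosinophil markers, 11 were lower and 1 higher and the median log2 fold change was −4.21, against 24% lower and 24.7% higher over all genes. The exception, Rnase2a, was named after its values were seen and had 0 and 1 reads in WT against 14 and 30. Summed over the list, these markers made up 1129.9 and 1221 CPM in WT and 85.6 and 82.9 CPM in 3xGrk-/- libraries. The part that eosinophils in the culture have in the other results was not tested.

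The other strong decreases were in genes of different kinds. Tcaf2, a regulator of the cation channel TRPM8, had 84.8 and 80.8 CPM in WT and 2.19 and 1.36 CPM in 3xGrk-/- cells (log2 fold change −5.55, SE 0.17, adjusted p = 1.66e-16). Icos, a costimulatory receptor best known from T cells and innate lymphoid cells, had 107 and 107 CPM against 7.58 and 3.62 CPM (log2 fold change −4.27, SE 0.16, adjusted p = 3.72e-15). Enpp2, which encodes autotaxin, the enzyme that makes lysophosphatidic acid, a ligand of G-protein coupled receptors, had 453 and 454 CPM in WT and 36.7 and 37.97 CPM in 3xGrk-/- cells (log2 fold change −3.6, SE 0.07, adjusted p = 1.26e-19). Tnfsf15, the TNF family cytokine TL1A, had 221 and 186 CPM against 17.4 and 15.7 CPM (log2 fold change −3.62, SE 0.11, adjusted p = 6.07e-17). Lower by 4.94- to 9.06-fold were the surface protein Plet1 (−3.18), the anchoring filament protein Lad1 (−2.72), the surface protein Thy1 (−2.51), the natriuretic peptide receptor Npr1 (−2.5), the fatty acid transporter Slc27a3 (−2.39), the metalloprotease Adam19 (−2.31) and Tspoap1 (−2.3), which binds the mitochondrial protein TSPO. Both 3xGrk-/- libraries lay below both WT libraries in each of these genes, as the rule for naming them required.

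**Figure D3:**
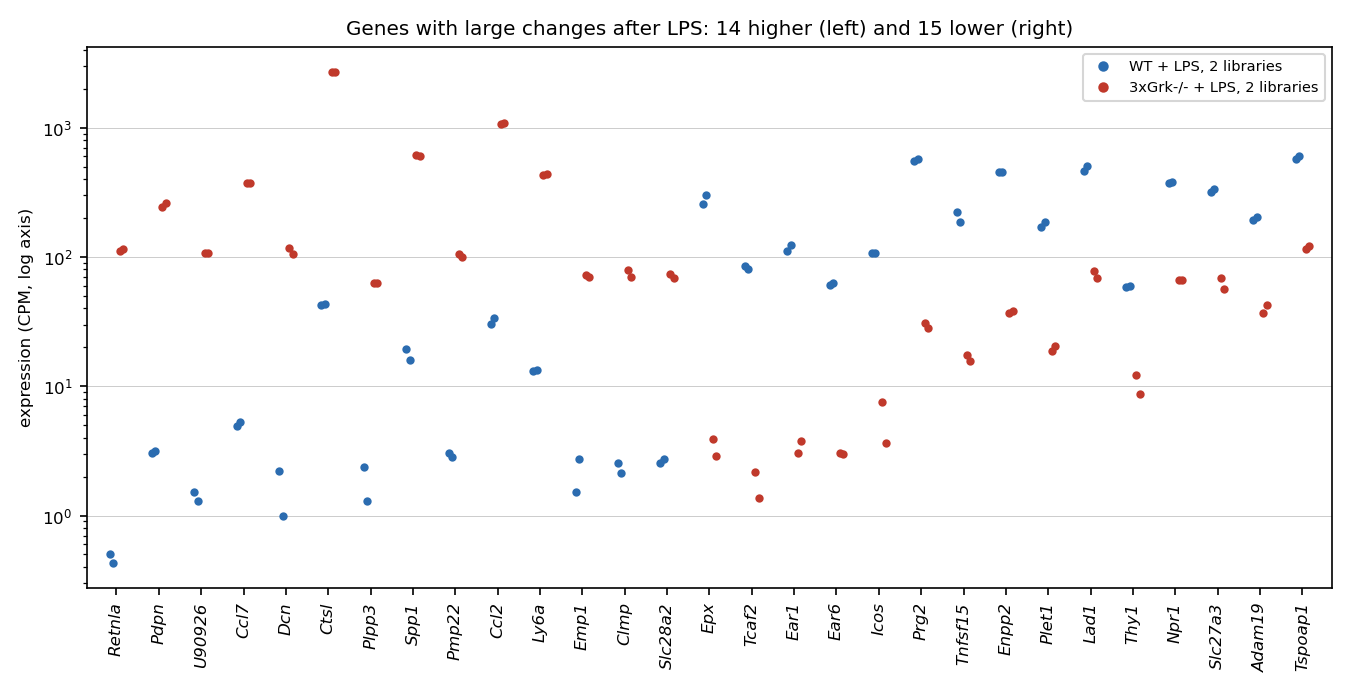
Expression in single libraries (CPM, log axis) of 14 genes among those with the largest increases (left) and the 15 with the largest decreases (right) in 3xGrk-/- cells after LPS; blue points are the 2 WT and red points the 2 3xGrk-/- libraries. Retnla is below 1 CPM in both WT libraries, and Epx, Tcaf2, Ear1 and Ear6 are below 4 CPM in both 3xGrk-/- libraries.

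Gene lists were compiled by function and share some members, and their counts are to be read against the 24.7% of all tested genes that were higher and the 24% that were lower. Transcription factors known from macrophages were mostly higher and most of those known from DCs were lower. Of the 22 macrophage factors tested, 17 were higher and 1 lower (median log2 fold change 1.41). Maf, a factor of tissue macrophages, had 8.47 and 5.15 CPM in WT and 73.96 and 70.1 CPM in 3xGrk-/- cells (log2 fold change 3.43, SE 0.15, adjusted p = 4.75e-14), and Cebpb, a factor of monocytes and of macrophage activation, had 17.6 and 20.6 CPM against 189.7 and 136 CPM (log2 fold change 3.08, SE 0.14, adjusted p = 7.10e-14). Tfec, a member of the MiT/TFE family of lysosomal regulators, also rose (2.93), whereas Nfatc1 was the factor that fell (−0.67). Of the 18 DC factors, 3 were higher and 12 lower (median log2 fold change −0.35). Irf4, which is needed for the migratory programme of conventional DCs, had 349 and 339 CPM in WT and 145 and 142 CPM in 3xGrk-/- libraries (log2 fold change −1.26, SE 0.06, adjusted p = 3.38e-13). Ikzf1, Ikaros, had 116 and 112 CPM against 57.4 and 59.4 CPM (log2 fold change −0.96, SE 0.08, adjusted p = 2.40e-09), and the repressor Bcl6 was also lower (−0.67). Nfil3 was higher (0.33), as were Spib and Klf4, named after their values were seen, with 1.86 and 2.09.

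Receptors for the growth factors of myeloid progenitors were mostly higher. Of 18 tested, 15 were higher and 1 lower (median log2 fold change 0.64). Csf1r, the receptor for M-CSF on which most macrophages depend, had 58.9 and 56.6 CPM in WT and 517 and 509.8 CPM in 3xGrk-/- cells (log2 fold change 3.15, SE 0.07, adjusted p = 4.12e-19). Flt3, the receptor for the growth factor of conventional DCs, had 18.1 and 18.4 CPM against 45.2 and 48.1 CPM (log2 fold change 1.35, SE 0.11, adjusted p = 2.99e-09), so that receptors of both lineages were higher. The chain Il10ra of the IL-10 receptor was the one that fell (−0.67). The 5 regulators that the study discusses for the balance of GM-DCs and GM-Macs, a list that is not independent of these samples, were all called. Nr4a3, an immediate early nuclear receptor, had 846 and 757 CPM in WT and 283 and 289 CPM in 3xGrk-/- cells (log2 fold change −1.48, SE 0.06, adjusted p = 3.83e-14). The related exchange factors Swap70 (−0.91) and Def6 (−0.84) were lower as well, and Nfe2l2, which encodes NRF2, was slightly higher (log2 fold change 0.33, SE 0.08, adjusted p = 0.00194), a call lost without replicate 1 of the 3xGrk-/- libraries. The repressor Gfi1 had 18 and 20 reads in WT and 2 and 7 in 3xGrk-/- libraries (log2 fold change −2.01, SE 0.48, adjusted p = 0.00129). WT was higher by a ratio of 4.11 with an exact 95% counting interval of 1.95 to 9.67, and the call was lost with DESeq2 and without replicate 1 of the 3xGrk-/- libraries, while the log2 fold change was −3.04 without replicate 2.

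Macrophage genes rose in large groups. Of 30 macrophage surface and effector genes, 25 were higher and 4 lower (median log2 fold change 2.5), and their summed expression was 1451 and 1402 CPM in WT and 9206 and 9359 CPM in 3xGrk-/- libraries. Lyz2, lysozyme M, had 262 and 269 CPM in WT and 4224 and 4287 CPM in 3xGrk-/- libraries (log2 fold change 4.0, SE 0.06, adjusted p = 7.09e-22). Siglec1, the sialic acid receptor CD169, had 10.2 and 14.01 CPM against 323 and 312 CPM (log2 fold change 4.7, SE 0.10, adjusted p = 4.33e-19), and Msr1, a scavenger receptor for modified lipoproteins, had 19.3 and 13.7 CPM against 272 and 274 CPM (log2 fold change 4.06, SE 0.10, adjusted p = 5.35e-18). The lysosomal phospholipase Pla2g15 was among the 4 that fell (−1.48). Monocyte genes followed, with 14 of 21 higher and 2 lower, among the former the matrix protein Thbs1 (2.78) and the membrane protein Ms4a6c (3.16), and among the latter Chil3 (−1.0) and S100a4 (−1.0). Scavenger and efferocytosis receptors were higher for 14 of 23 and lower for 3 (1 with DESeq2, 5 without replicate 2 of WT), with Stab1 (3.42) and Cd300lf (2.97) among those higher.

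Genes of lipid-laden macrophages and osteoclasts were mostly higher as well. Among 27 lipid-associated macrophage genes, 25 were higher and 1, the fatty acid binding protein Fabp5 (−0.33), was lower. Trem2, a lipid-sensing receptor of these cells, had 2.88 and 3.72 CPM in WT and 79.2 and 81.4 CPM in 3xGrk-/- cells (log2 fold change 4.58, SE 0.15, adjusted p = 3.54e-16). Atp6v0d2, a proton pump subunit known from osteoclasts, had 3.56 and 4.003 CPM against 97.7 and 104 CPM (log2 fold change 4.72, SE 0.14, adjusted p = 7.07e-17), and Dcstamp, a protein of cell fusion, also rose (2.42). Of 17 osteoclast genes, 12 were higher and 3 lower, the latter being the carbonic anhydrase Car2 (−1.71), Nfatc1 and the RANK receptor gene Tnfrsf11a (−0.58). Targets of the sterol receptor LXR were higher for 12 of 16 members (median 1.24). Apoe, apolipoprotein E, had 15.6 and 15.7 CPM in WT and 287 and 278 CPM in 3xGrk-/- libraries (log2 fold change 4.17, SE 0.09, adjusted p = 2.69e-19), and the cholesterol exporter Abca1 had 46.4 and 38.7 CPM against 301 and 325 CPM (log2 fold change 2.88, SE 0.08, adjusted p = 4.90e-17). Sterol synthesis and uptake moved the other way, with 15 of 25 genes lower and 3 higher (median −0.55), the demethylase Cyp51 (−1.96) and the synthase Hmgcs1 (−1.1) being among the strongest well-expressed decreases.

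Lysosomal genes rose across the organelle. Of 53 hydrolases and membrane proteins, 44 were higher and 4 lower (median 1.16), and of 18 subunits of the vacuolar ATPase, the pump that acidifies the lysosome, 14 were higher and 1, Atp6v0a1 (−0.33), was lower. Grn, progranulin, had 168 and 183 CPM in WT and 1089.9 and 1028 CPM in 3xGrk-/- cells (log2 fold change 2.59, SE 0.06, adjusted p = 4.20e-18). Gla, the alpha-galactosidase that is missing in Fabry disease, had 12.2 and 12.4 CPM against 115 and 101 CPM (log2 fold change 3.13, SE 0.12, adjusted p = 2.47e-15), and the ion channel Mcoln2 had 3.22 and 3.57 CPM against 45.8 and 46.3 CPM (log2 fold change 3.75, SE 0.17, adjusted p = 5.30e-14). Cathepsins and their inhibitors split: 12 of 23 were higher and 5 lower (3 with DESeq2). Besides Ctsl, the proteases Ctsb (378 and 395 CPM in WT, 3386 and 3432 CPM in 3xGrk-/- cells, log2 fold change 3.14, SE 0.05, adjusted p = 1.52e-20) and Ctsd (478 and 491 CPM against 3865 and 3806 CPM, log2 fold change 2.99, SE 0.05, adjusted p = 2.03e-20) were far higher. The best-expressed decreases in the list were those of protease inhibitors, Cst3 (6419.8 and 7091 CPM in WT against 4442 and 4396 CPM in 3xGrk-/- cells), Serpinb9 (−0.85) and Serpinb1a (−1.3).

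The letters TCACGTGA, an E-box known as the core of the site that TFEB and related factors bind in lysosomal promoters, read the same on both strands. In the RefSeq promoters of GRCm38.p6 (250 bases before to 50 after the start), 4 of the 45 lysosomal genes with a promoter, 2 of 18 cathepsin genes and 3 of 12 vacuolar ATPase genes held TCACGTGA, against 1.12% of all genes. The shorter CACGTG, which every TCACGTGA contains, was held by 12, 4 and 4 of them, against 8.09% of all genes. The 5 stretches below are those of list members in which the longer motif lies before the start with room on both sides, each 80 bases long and given 5′ to 3′ along the strand of the gene, with TCACGTGA in capitals; they were picked for the motif, with the expression values known.
Gla (chrX:134601157-134601236, minus strand): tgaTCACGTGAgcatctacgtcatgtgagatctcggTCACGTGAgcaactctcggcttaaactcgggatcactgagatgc
Cln3 (chr7:126583315-126583394, minus strand): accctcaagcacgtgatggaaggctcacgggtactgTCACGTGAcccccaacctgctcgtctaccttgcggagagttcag
Mcoln1 (chr8:3500437-3500516, plus strand): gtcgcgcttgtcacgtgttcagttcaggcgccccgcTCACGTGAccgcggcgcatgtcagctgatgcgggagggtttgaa
Ctsd (chr7:142387883-142387962, minus strand): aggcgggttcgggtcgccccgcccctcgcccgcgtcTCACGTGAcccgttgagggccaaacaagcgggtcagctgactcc
Atp6v1a (chr16:44139348-44139427, minus strand): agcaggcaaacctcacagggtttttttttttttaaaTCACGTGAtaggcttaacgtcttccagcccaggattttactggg
Gla holds the motif 2 times and the others once. Of the 9 list members with the longer motif, 7 were called higher. Of all members with a promoter, 37 of 45 lysosomal, 10 of 18 cathepsin and 8 of 12 vacuolar ATPase genes were higher. All 5 genes were higher in 3xGrk-/- cells: beside Gla and Ctsd, Cln3, a lysosomal membrane protein, changed by 1.64, the calcium channel Mcoln1 by 1.08 and the pump subunit Atp6v1a by 0.88. Of the 37 lysosomal genes with a promoter that were higher, 11 held CACGTG, and of the 4 that were lower, 0 did. Of the 8 vacuolar ATPase genes that were higher, 2 of the 4 with CACGTG and 1 of the 3 with TCACGTGA were among them. A match is a description of letters and says nothing of binding.

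Genes of DC maturation were lower on balance, though less strongly. Of 43 such genes, 23 were lower and 11 higher (median log2 fold change −0.21), and their summed expression was 50819 and 51864 CPM in WT and 34088 and 33788 CPM in 3xGrk-/- libraries, a sum in which Ccl22 has the largest share. Ccl17, which shares the receptor CCR4 with Ccl22, had 1755 and 1896 CPM in WT and 579.9 and 549.8 CPM in 3xGrk-/- cells (log2 fold change −1.69, SE 0.06, adjusted p = 7.60e-16). Serpinb6b, an inhibitor of granzymes, had 529.6 and 511 CPM against 171 and 180.0 CPM (log2 fold change −1.57, SE 0.06, adjusted p = 9.38e-15). Ccr7, the receptor for migration to lymph nodes, had 3429 and 3589 CPM in WT and 2855 and 2775 CPM in 3xGrk-/- libraries (log2 fold change −0.32, SE 0.05, adjusted p = 1.17e-05), a small decrease in a gene that stayed abundant. Its call was lost at an assumed coefficient of variation of 0.1 and in the test against a 1.5-fold change. Among the members that rose were Clu, clusterin (2.46), the PD-1 ligand gene Pdcd1lg2 (1.03) and Apol7c (0.99), which is linked to cross-presentation.

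Surface genes of conventional DCs gave a mixed picture. Of 24 tested, 15 were lower and 7 higher (median −0.42), and another 12 of the 36 listed had too few reads to be tested, among them Xcr1, Clec9a, Itgae and Cd209a, which define subsets of conventional DCs. Ly75, the endocytic receptor DEC-205, had 899 and 844 CPM in WT and 355 and 358 CPM in 3xGrk-/- cells (log2 fold change −1.29, SE 0.06, adjusted p = 9.78e-14), and Kmo, an enzyme of the kynurenine pathway, had 164 and 153 CPM against 51.05 and 49.4 CPM (log2 fold change −1.66, SE 0.08, adjusted p = 2.39e-13). In the other direction, Itgax, the integrin chain CD11c that is used to gate BMDCs, had 58.9 and 65.5 CPM against 312 and 319 CPM (log2 fold change 2.34, SE 0.07, adjusted p = 1.50e-16), and Sirpa, the receptor for CD47, had 340.1 and 347 CPM against 985 and 967 CPM (log2 fold change 1.51, SE 0.06, adjusted p = 4.07e-15). Both are also found on macrophages. MHC class II presentation showed a similar split, with 9 of 14 genes lower and 3 higher. Ciita, the master regulator of class II genes, had 164 and 170.0 CPM in WT and 95.5 and 99.6 CPM in 3xGrk-/- libraries (log2 fold change −0.77, SE 0.07, adjusted p = 1.05e-08). The 3 that rose act on class II molecules or on the antigens they present: the ubiquitin ligase March1 (2.62), the thiol reductase Ifi30 (1.48) and the protease Ctss (1.41). Class II and DC genes were thus present in both genotypes, as the label BMDC implies, beside macrophage genes in both.

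MHC class I and interferon-stimulated genes were higher. Of 22 class I presentation genes, 15 were higher and 5 lower. B2m, the light chain shared by all class I molecules, had 3309.5 and 3232 CPM in WT and 6076 and 6163 CPM in 3xGrk-/- cells (log2 fold change 0.9, SE 0.05, adjusted p = 4.28e-13), and the class I genes H2-T22 (1.31) and H2-Q7 (1.11), whose reads can be split among near-identical copies, rose as well. The decreases were small, as in Cd1d1 (−0.31) and the class I activator Nlrc5 (−0.3, lost without replicate 1 of the 3xGrk-/- libraries). The number called lower was 1 without replicate 1 and 2 without replicate 2 of the 3xGrk-/- libraries, and 3 without replicate 2 of WT. Of 47 interferon-stimulated genes, 39 were higher and 2 lower (1 with DESeq2 or without either 3xGrk-/- replicate, median log2 fold change 0.94). Isg20, an antiviral exonuclease, had 11.005 and 12.7 CPM in WT and 108 and 104 CPM in 3xGrk-/- cells (log2 fold change 3.15, SE 0.11, adjusted p = 1.68e-15), and Irf7, the factor that amplifies type I interferon, had 543 and 594 CPM against 1547 and 1500.3 CPM (log2 fold change 1.42, SE 0.06, adjusted p = 1.49e-14). Mx1, an antiviral GTPase, went the other way, with 1159 and 1143 CPM against 775 and 739 CPM (log2 fold change −0.6, SE 0.05, adjusted p = 7.37e-09). Letters of the interferon response element, GAAANNGAA on either strand, were found in 19 of the 32 list members with a promoter (59.4%), against 9.76% of all genes, and in 15 of the 26 that were higher.

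Inflammatory cytokines split by member. Of 27 tested, 19 were higher and 6 lower (median log2 fold change 1.08). Il1rn, the antagonist of the IL-1 receptor, had 135 and 127 CPM in WT and 1647 and 1707 CPM in 3xGrk-/- cells (log2 fold change 3.68, SE 0.06, adjusted p = 1.12e-20), and its target cytokine Il1a had 168 and 151 CPM against 888 and 966 CPM (log2 fold change 2.54, SE 0.07, adjusted p = 1.35e-17). Inhba, a subunit of activin A, had 25.6 and 23.4 CPM against 276 and 282 CPM (log2 fold change 3.51, SE 0.08, adjusted p = 1.67e-18). The 6 that were lower were Tnfsf15, the lymphotoxin chains Lta (−3.33) and Ltb (−2.25), Lif (−0.75), Il12b and Ebi3. Il12b, the chain shared by IL-12 and IL-23, had 238 and 241 CPM in WT and 54.6 and 54.99 CPM in 3xGrk-/- libraries (log2 fold change −2.13, SE 0.07, adjusted p = 8.29e-16), and Ebi3, a chain of IL-27 and IL-35, had 329 and 349.8 CPM against 104 and 96.4 CPM (log2 fold change −1.76, SE 0.07, adjusted p = 5.20e-15). Among their partner chains, Il12a (1.08) and Il27 (3.18) went the opposite way, both named after their values were seen. The value of Il23a is not reported here.

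Chemokines showed the highest median of the lists in the plot by gene list, 2.63, with 20 of 24 higher and 4 lower. Their summed expression was nevertheless 31405 and 32819.6 CPM in WT and 22831 and 23042 CPM in 3xGrk-/- libraries, a sum in which Ccl22 had the largest share in both genotypes. Beside Ccl2 and Ccl7, the neutrophil-attracting Cxcl5 had 1.19 and 1.57 CPM in WT and 53.9 and 60.7 CPM in 3xGrk-/- cells (log2 fold change 5.34, SE 0.20, adjusted p = 2.17e-15), whereas Cx3cl1, a membrane-bound chemokine, had 273 and 280.0 CPM against 123 and 123 CPM (log2 fold change −1.17, SE 0.06, adjusted p = 2.34e-12). Among chemokine receptors, which GRKs regulate as proteins, 6 of 10 were higher and 3 lower. Beside Ccr7, the lower ones were Ccr3 (−3.96) and Cxcr2 (−0.96), named after their values were seen, which are also on the lists of eosinophil and neutrophil markers. The part of those cells in these decreases was not tested. Ccr1, a receptor for inflammatory CC chemokines, had 30.1 and 29.7 CPM in WT and 318 and 338 CPM in 3xGrk-/- libraries (log2 fold change 3.45, SE 0.08, adjusted p = 9.29e-19). The non-signalling receptor Ccrl2 was higher too (1.86).

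**Figure D4:**
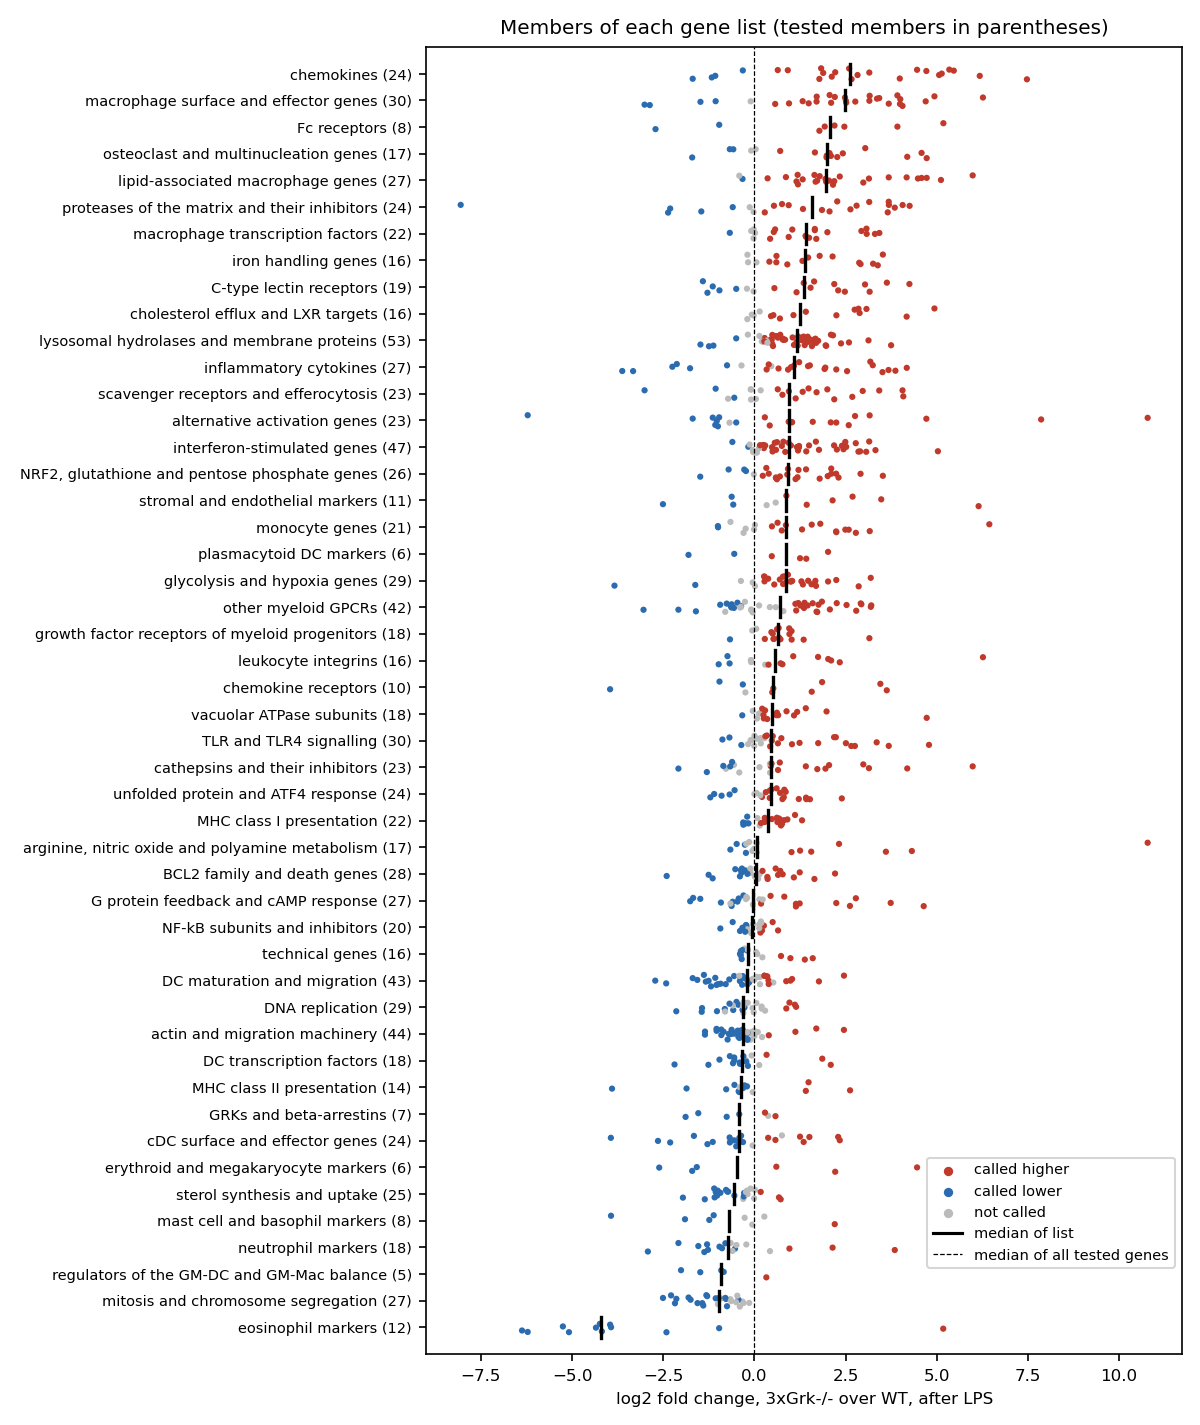
Log2 fold change of 3xGrk-/- over WT after LPS (x axis) for each tested member of 48 gene lists (y axis, number of tested members in parentheses), sorted by median; red points are called higher, blue lower and grey not called, black bars are list medians and the dashed line is the median of all tested genes (−0.01). Chemokines (2.63) and macrophage surface genes (2.50) are at the top, mitosis genes (−0.98) and eosinophil markers (−4.21) at the bottom.

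Of 42 other G-protein coupled receptors of myeloid cells, 20 were higher and 11 lower, the latter a share near the 24% of all genes. The complement receptors C3ar1 (43.3 and 42.7 CPM in WT, 321 and 336 CPM in 3xGrk-/- cells, log2 fold change 2.93, SE 0.07, adjusted p = 4.29e-18) and C5ar1 (6.09 and 4.86 CPM against 49.03 and 50.5 CPM, log2 fold change 3.19, SE 0.15, adjusted p = 1.46e-13) rose, as did the nucleotide receptor P2ry6 (2.92). The proton-sensing receptor Gpr65 (−0.94) and the oxysterol receptor Gpr183 (−0.76), which positions DCs in lymphoid tissue, were lower. Genes of G protein feedback and the cAMP response showed no common direction, with 11 of 27 higher and 9 lower. Vegfa (2.24) and the phosphatase Dusp1 (1.24) were among those higher, and Nr4a3, Dusp4 (−1.68) and Rgs3 (−0.92), which speeds up the inactivation of G proteins, among those lower.

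Genes of innate sensing were compared from the receptors down to NF-kB. Of 30 genes of Toll-like receptors and TLR4 signalling, 18 were higher and 3 lower (1 with DESeq2). Tlr7, a sensor of single-stranded RNA, had 5.59 and 4.29 CPM in WT and 60.8 and 65.1 CPM in 3xGrk-/- cells (log2 fold change 3.68, SE 0.15, adjusted p = 1.11e-14), and Cd180, a TLR4-like receptor, had 6.09 and 5.57 CPM against 55.8 and 63.1 CPM (log2 fold change 3.35, SE 0.14, adjusted p = 3.89e-14). Of 20 subunits and inhibitors of NF-kB, 5 were higher, a share like the 24.7% of all genes, and 8 lower, with changes between −0.93 (Tnip3) and 0.65 (the inhibitor Tnfaip3), and the number higher was 2 without replicate 1 and 3 without replicate 2 of the 3xGrk-/- libraries, and 8 without replicate 2 of WT. The number lower was 5 without either of the 3xGrk-/- replicates. Fc receptors, which bind antibodies, were higher for 6 of 8. Fcgr1, the high-affinity receptor, had 19.3 and 18.7 CPM in WT and 287 and 289 CPM in 3xGrk-/- cells (log2 fold change 3.92, SE 0.08, adjusted p = 3.96e-19), and the inhibitory Fcgr2b had 51.5 and 56.3 CPM against 296 and 301 CPM (log2 fold change 2.47, SE 0.07, adjusted p = 7.06e-17), while the neonatal receptor Fcgrt was lower (−0.97). C-type lectin receptors were higher for 12 of 19 and lower for 5 (3 with DESeq2 and without replicate 2 of WT). Clec4d (3.63), Clec4e (3.03) and Clec4n (2.48), neighbouring receptors for microbial glycolipids and mannans, rose together.

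Most genes of the actin and migration machinery were lower, by small amounts. Of 44 genes, 28 were lower and 4 higher (median log2 fold change −0.31), and the summed expression was 35122 and 36058 CPM in WT and 25489.7 and 25178 CPM in 3xGrk-/- libraries. A decrease of at least 2-fold was reached by 4 of the 28, and the test against a 1.5-fold change called 9 lower. Coro1a, an actin-binding protein of leukocytes, had 878 and 959 CPM in WT and 361 and 358 CPM in 3xGrk-/- cells (log2 fold change −1.36, SE 0.06, adjusted p = 6.71e-14), and Elmo1, a partner of the Rac activator DOCK2, had 279 and 288 CPM against 113 and 109 CPM (log2 fold change −1.35, SE 0.07, adjusted p = 2.81e-13). The small GTPase Rhob (2.45), the myosin Myo1f (1.7) and Evl (1.12) were higher. Leukocyte integrins were higher for 9 of 16, among them Itgam (2.1), the chain CD11b, while Itgb1 (−0.68) and Itgal (−0.74) were among the 3 lower (5 without replicate 2 of WT). Proteases of the matrix and their inhibitors were higher for 17 of 24 and lower for 5. The collagenases Mmp13 (11.005 and 10.3 CPM in WT, 177 and 179 CPM in 3xGrk-/- cells) and Mmp8 (23.2 and 23.7 CPM against 336 and 341 CPM) and the plasminogen activator inhibitor Serpinb2 (3.69) rose, and Adam23 fell (−1.46).

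Arginine metabolism changed at single steps. Nos2, the inducible synthase that makes nitric oxide from arginine, had 23.4 and 25.9 CPM in WT and 501 and 484 CPM in 3xGrk-/- cells (log2 fold change 4.32, SE 0.08, adjusted p = 2.57e-20), and the arginine transporter Slc7a2 had 216 and 201 CPM against 2496 and 2576 CPM (log2 fold change 3.61, SE 0.06, adjusted p = 9.00e-21). Slc7a1, another arginine transporter, was lower (−0.66). Over the whole list of 17 genes, 7 were higher and 4 lower, the latter 2 with DESeq2 and without either 3xGrk-/- replicate or replicate 2 of WT. Alternative activation genes were higher for 14 of 23 and lower for 8 (5 with DESeq2). Fibronectin, Fn1 (2.59), Retnla and Pdcd1lg2 were among those that rose, and Ccl17, Ccl22 and Alox15 among those that fell.

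Iron handling and the NRF2 response rose together. Of 16 iron genes, 13 were higher (median 1.4), and of 26 genes of NRF2, glutathione and the pentose phosphate pathway, 21 were higher and 4 lower (2 without replicate 2 of the 3xGrk-/- libraries). Hmox1, the heme oxygenase that frees iron from heme, had 29.1 and 30.3 CPM in WT and 338 and 345 CPM in 3xGrk-/- cells (log2 fold change 3.52, SE 0.08, adjusted p = 4.68e-19). Prdx6, a peroxiredoxin, had 35.7 and 40.3 CPM against 188 and 189.7 CPM (log2 fold change 2.31, SE 0.08, adjusted p = 1.62e-15), while catalase, Cat, was lower (−0.71). Hamp, the iron hormone hepcidin, rose from 3.56 and 4.43 CPM to 39.9 and 37.4 CPM (log2 fold change 3.25, SE 0.17, adjusted p = 9.90e-13). Glycolysis and hypoxia genes were higher for 24 of 29, among them the hexokinase Hk3 (3.19) and the glucose transporter Slc2a1 (2.02). The phosphofructokinase Pfkp had 528 and 540.2 CPM in WT and 178 and 169.6 CPM in 3xGrk-/- libraries and was 1 of the 2 that fell (log2 fold change −1.62, SE 0.06, adjusted p = 4.45e-15).

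Genes of cell division, stress responses and cell death were also compared. Of 27 mitosis genes, 17 were lower and the other 10 did not pass (median log2 fold change −0.98), but the list made up only 163 and 175 CPM in WT and 102 and 96.1 CPM in 3xGrk-/- libraries. DESeq2 called 3 of them and the fit without replicate 2 of WT 10. DNA replication genes were lower for 12 of 29 and higher for 4 (2 with DESeq2); Mcm3 (−0.44), a helicase subunit whose call was lost with DESeq2, was among the lower and Uhrf1 (1.14), which maintains DNA methylation, among the higher, and the number lower was 4 with DESeq2 and 6 without replicate 2 of the 3xGrk-/- libraries. Genes of the unfolded protein and ATF4 responses were higher for 16 of 24 and lower for 5, with Ddit3, the stress factor CHOP (1.42), and the cystine transporter Slc7a11 (1.42) among the former and Sesn2 (−1.21) and Herpud1 (−0.9) among the latter. BCL2 family and death genes were evenly split, 11 higher and 11 lower of 28. The necroptosis effector Mlkl (2.21) and the caspases Casp1 (1.24) and Casp4 (1.65) of pyroptosis rose, and the survival gene Bcl2l1 (−1.15) and the death gene Bbc3 (−1.26) fell.

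Markers of other cell types that a marrow culture can hold were mostly low, and few besides those of eosinophils moved in one direction. Neutrophil markers were lower for 10 of 18, among them S100a8 (−0.89), S100a9 (−1.3) and the granule protein Ngp (−0.8), yet the summed expression of the list was 719 and 799 CPM in WT and 2033 and 2031 CPM in 3xGrk-/- libraries. Lcn2, lipocalin 2, which LPS also induces in macrophages, rose from 316 and 339.8 CPM to 1465 and 1434 CPM (log2 fold change 2.14, SE 0.06, adjusted p = 1.86e-17), and Mmp8 was also higher. DESeq2 called 6 of the list lower. Of the 22 lymphocyte markers, 9 had no read in any of the 4 libraries, among them Cd3d, Cd3g, Cd4 and Ms4a1, and 3 had enough reads to be tested. Of these 3, 1 was higher and 1 was lower, the latter by a log2 fold change of −3.94. The one that rose, Il7r (1.6), is also expressed by activated myeloid cells. Of 6 plasmacytoid DC markers tested, 4 were higher, among them Bst2 (1.25) and Irf7, which interferon also induces, and 2 were lower, Pacsin1 (−1.81) and Tcf4 (−0.55). The defining Siglech had 1 read in all. Of the erythroid and megakaryocyte markers, 3 of the 6 tested were higher and 3 lower, and their summed expression was 759 and 721 CPM in WT and 352 and 364 CPM in 3xGrk-/- libraries, most of it from Car2. The 3 lower were the globin Hbb-bt (−1.58), Car2 and the platelet integrin chain Itga2b (−2.61). Alas2 and Car1 had no read, and Pf4, a platelet chemokine that macrophages can make, rose from 5.59 and 4.43 CPM to 112 and 108 CPM (log2 fold change 4.46, SE 0.13, adjusted p = 7.41e-17). Stromal and endothelial markers summed to 107 and 96.6 CPM in WT and 219 and 217 CPM in 3xGrk-/- libraries, with Dcn holding most of the gain. Mast cell and basophil markers were lower for 4 of 8 (2 with DESeq2, without replicate 2 of the 3xGrk-/- libraries or without replicate 2 of WT), and Hdc, the histidine decarboxylase that makes histamine, rose (2.2). The part these cells have in the other results was not tested.

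The genotype effect after LPS was tested against that in untreated cells of the same genotypes in one fit of all 8 libraries, and 4070 of 12541 genes (32.5%) had an effect that differed with LPS. Of the 2919 genes called higher after LPS, 1432 had a significantly larger log2 change with LPS than without. Of the 2835 called lower, 1483 had a significantly more negative one. These genes were picked by their change after LPS, which is also part of the difference. The counts therefore cannot show that LPS widened the genotype effect. The untreated calls come from a fit with a common coefficient of variation of 0.0306. That fit called even Gm42418, whose untreated libraries overlapped between the genotypes. With a significant difference also required, the effect was called in opposite directions in 625 genes, 271 lower without and higher with LPS and 354 the reverse. Among the 33 named genes with such a reversal Isg20 showed the widest gap, with −2.68 in untreated and 3.15 in LPS-stimulated cells (difference 5.83, adjusted p = 9.62e-12). Fcgr1 turned from −0.64 to 3.92 (difference 4.56, adjusted p = 2.67e-20), and Psap from −0.1 to 2.15 (difference 2.26, adjusted p = 4.35e-23). DC lists differed in how their effects moved with LPS. The counts by direction below have only the 32.5% of all genes, both directions together, to be read against. Of the 43 genes of DC maturation, 25 had a more negative and 7 a more positive effect with LPS than without, and of the 18 DC transcription factors 11 and 2. For MHC class II presentation it was 1 more negative and 11 more positive of 14, with a median log2 fold change of −0.90 without and −0.35 with LPS. For surface genes of conventional DCs it was 3 and 14 of 24, with medians of −0.89 and −0.42. Ccl22 had 0.83 without and −1.07 with LPS (difference −1.91, adjusted p = 4.35e-23), and Fscn1 0.47 and −1.04 (difference −1.51, adjusted p = 2.40e-17). Ccr7 (0.24 without, −0.32 with LPS), the activation marker Cd69 (0.55, −1.41) and Bcl2l1 (0.64, −1.15) were also higher without and lower with LPS. Other maturation genes did not turn, as Ccl17 was lower (−1.35) and Clu higher (3.02) without LPS as well. The eosinophil genes Epx and Prg2 were lower without LPS too, Epx at −5.89 (difference −0.49, adjusted p = 0.217) and Prg2 at −4.27 (difference 0.03, adjusted p = 0.852), and neither difference passed the threshold. In 3 of the 12 eosinophil markers, named after their values were seen, it did: Alox15 and Siglecf were lowered further with LPS and Ear2 less.

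**Figure D5:**
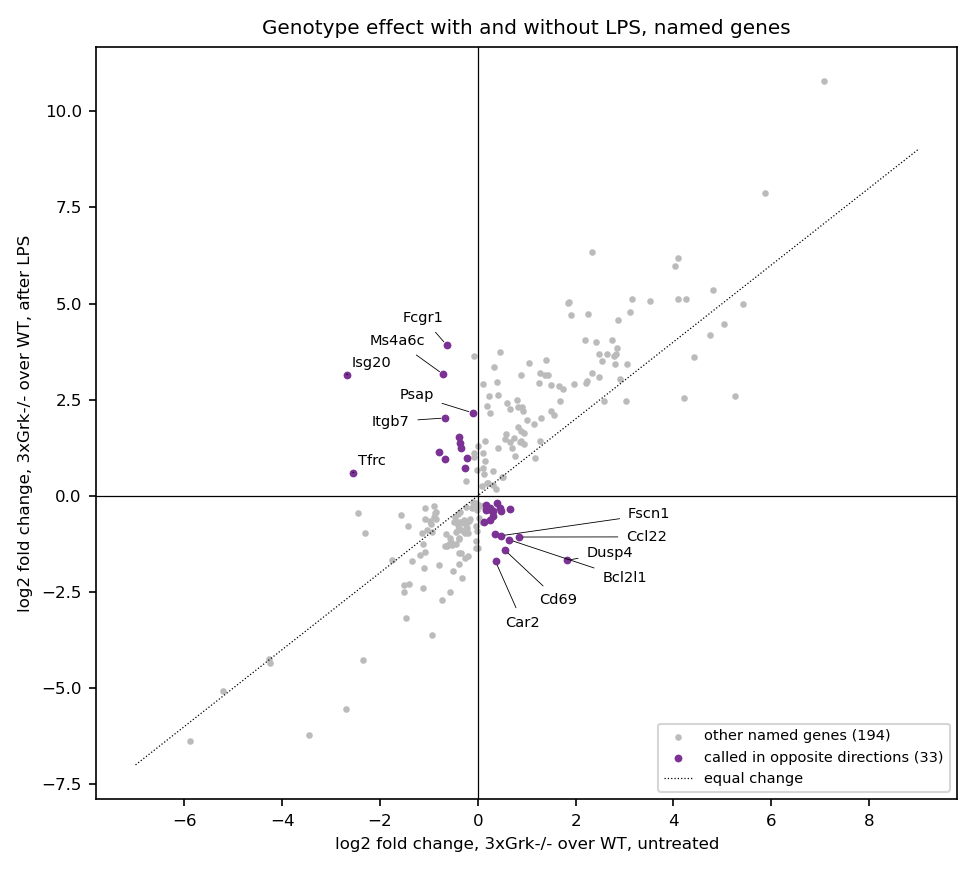
Log2 fold change of 3xGrk-/- over WT in untreated (x axis) and LPS-stimulated cells (y axis) for the 227 named genes tested in both; the 33 purple points are genes called in opposite directions with a significant difference, grey points the other 194, and the dotted line marks equal change. Isg20, Fcgr1, Ms4a6c, Itgb7, Tfrc and Psap are lower without and higher with LPS, and Ccl22, Fscn1, Cd69, Car2, Bcl2l1 and Dusp4 higher without and lower with LPS.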

How the data were processed

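RNA sequencing libraries of LPS-stimulated and untreated BMDCs were prepared with a stranded poly(A) kit. The authors mapped the reads with STAR in the snakePipes workflow to mm10 (GRCm38) and counted them per gene with featureCounts, and the deposited values are raw read counts, not normalised. The annotation release and the strand setting are not given in the sources used here, so reads of overlapping and near-identical genes cannot be assigned with certainty. Samples were grouped by their labels. Gene names and coordinates come from GENCODE M21, in which 47310 of 47937 identifiers were found, and promoters and their sequences from RefSeq (GRCm38.p6).

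Counts of the 4 LPS libraries were tested with edgeR 4.0.16 in R 4.3.3 (TMM scaling, filterByExpr with a minimum count of 10, glmQLFit and glmQLFTest), with Benjamini-Hochberg adjustment and a threshold of 0.05. The difference from the effect in untreated cells was an interaction term in a fit of all 8 libraries. The scripts were tested on simulated counts. Named genes were the 15 with the largest change in each direction among called genes with non-overlapping genotypes, predicted genes left out and mean log2 CPM no lower than 5, the 10 most-read genes of each genotype, the kinases and the regulators listed, and up to 3 genes per list and direction with a mean log2 CPM of at least 4. The comparison and the lists were chosen with earlier results of these data known. Exceptions are named where they occur. Results for some genes that meet the rule are not reported here. Ratios of genes with 3 or fewer reads in a library have exact conditional intervals that cover counting error only. Alternatives were other scalings, filters and thresholds, DESeq2 1.42.0, fixed dispersions, a replicate block, thinning to equal depth, and leaving out each library or the marker genes of other cells. Over all tested genes, the deviations of same-numbered LPS libraries had a correlation of −0.0073 between the genotypes, and the numbers were not used as pairs.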

Additional observations from a re-analysis of the deposited data

Results flagged for a closer look

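The genotype effect differed between LPS-stimulated and untreated cells for 4070 of the 12541 genes tested in one fit of all 8 libraries. For 33 named genes the call without LPS was opposite to that with LPS and the difference was significant, and another 156 had a significant difference without that reversal. The values below are the log2 fold change after LPS minus that without LPS.

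For 20 of them the effect turned downwards with LPS. The difference was −3.50 for the phosphatase Dusp4, −2.07 for Car2, −1.96 for Cd69, −1.91 for Ccl22, −1.79 for Bcl2l1, −1.51 for Fscn1, −1.36 for S100a4 and −1.0 for Atp6v0a1. It was −0.88 for Actb, −0.87 for Nfkbib, −0.84 for Birc2, −0.81 for Itgb1, −0.75 for Cd1d1, −0.71 for mt-Nd2 and −0.63 for Traf6. The smallest differences were −0.57 for Tmsb4x, −0.56 for Ccr7, −0.54 for mt-Nd1, −0.52 for Fabp5 and −0.40 for Psme1. The calls after LPS of mt-Nd1 and mt-Nd2 were lost with DESeq2, and without replicate 1 of WT their log2 fold changes were −0.21 and −0.16. Those of Tmsb4x and Psme1 were lost without either replicate of the LPS-stimulated 3xGrk-/- libraries, and that of Tmsb4x also with the replicate block.

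For the other 13 it turned upwards. The difference was 5.83 for Isg20, 4.56 for Fcgr1, 3.88 for Ms4a6c, 3.15 for the transferrin receptor Tfrc, 2.69 for Itgb7 and 2.26 for Psap. It was 1.93 for Uhrf1, 1.91 for Ddit4, 1.63 for Csf3r, 1.59 for Bst2 and 0.98 for the sterol isomerase Ebp. Gm42418 (1.74) and Gm26917 (1.19), which overlap ribosomal RNA genes, also differed. For both, the libraries of the genotypes overlapped with and without LPS, although both were called. Untreated Gm42418 had 4249 and 6222 CPM in WT and 2817 and 5344 CPM in 3xGrk-/- libraries. Untreated Gm26917 had 121 and 135 CPM against 90.3 and 133 CPM. The calls of both genes after LPS were lost with DESeq2. Without replicate 2 of the LPS-stimulated 3xGrk-/- libraries, their log2 fold changes after LPS were −0.19 for Gm42418 and 0.34 for Gm26917, and 3373 genes had a significant difference, a setting added after seeing the data.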

How the results depend on the processing

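Against 5754 genes called by edgeR, DESeq2 called 3663 (1671 lower), of which 3633 were shared. A minimum 2-fold change left 1984 (1223 higher, 761 lower), a test against a 1.5-fold change 2143 (1290 higher, 853 lower) and an assumed coefficient of variation of 0.4, larger than that measured here, 782 (569 higher, 213 lower). An assumed coefficient of 0.1, also larger than that measured, left 4358. For the difference from untreated cells, DESeq2 called 2451 and the coefficient of 0.4 left 72. Leaving out 1 library gave between 4460 and 5712 calls. Scaling by library size only moved the median of all genes by −0.0877 and gave 2474 higher and 3572 lower, so 40.9% of calls were higher in place of 50.7%. The causes were not tested. Among the named genes, Gm42418 alone changed direction, its log2 fold change ranging from −0.19 without replicate 2 to 2.13 without replicate 1 of the LPS-stimulated 3xGrk-/- libraries. The calls of 14 named genes were lost with DESeq2 and of 130 at a coefficient of 0.4. Of 98 counts of list members called higher or lower, 51 moved by over 1.5 times with the 2-fold minimum, 45 with the test against 1.5-fold, 82 at a coefficient of 0.4 and 16 with DESeq2. With 2 libraries per genotype, which may be technical, the spread between mice is not known.

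The replicate numbers did not pair the libraries. With the replicate block, 5654 genes were called (2883 higher, 2771 lower) and 3884 for the difference from untreated cells. Among the calls lost with the block were those of mt-Co1, Stat2 and Tmsb4x.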
